A study of Triticum aestivum with 18 samples.

Results

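The waterlogged seeds of 2 bread wheat (Triticum aestivum) varieties were compared, Bainong207 (BN207) against Zhoumai22 (ZM22). The comparison took every waterlogged library that the labels assign to either variety, 3 of BN207 (W72_BN207) and 3 of ZM22 (W72_ZM22), which is 6 of the 18 libraries of the study. ZM22 is described by the study as waterlogging-intolerant and BN207 as intermediate, and Bainong607 (BN607), the remaining variety, as tolerant. In the waterlogged groups, plump seeds were kept for 72 h in a beaker with water 10 cm deep, then removed and left to germinate at 25 °C for 72 h in contact with water but not submerged, as the labels describe it, while the study's methods speak of glass Petri dishes kept in the dark. The control groups of the same varieties (C72_BN207, C72_ZM22 and C72_BN607, 3 libraries each) were imbibed for 24 h and germinated for 72 h without submergence. Poly(A) RNA was taken from the seed after the radicle and coleoptile had been cut away, so what was left of the embryo was sampled together with the endosperm. The RNA was also used for qRT-PCR, for which a sample is described as a mixture of 3 seeds. The sources do not say whether the libraries of a variety came from separate seed lots. In such bulk samples, fewer cells of a type and less RNA per cell cannot be told apart.

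Seeds under water run short of oxygen, and respiration gives way to fermentation, in which pyruvate decarboxylase and alcohol dehydrogenase turn pyruvate into ethanol and regenerate NAD+. In germinating cereal grains the aleurone and scutellum meanwhile secrete alpha-amylases and proteinases that dissolve starch and storage protein in the endosperm. Bread wheat is a hexaploid with A, B and D subgenomes, so most genes have homoeologous copies on chromosomes such as 1A, 1B and 1D. Reads of every variety were placed on the reference genome of the variety Chinese Spring, IWGSC RefSeq v1.0, the build of all coordinates below. A transcript that was absent and one whose sequence did not map to that reference cannot be told apart in these values, and the sources do not say how reads shared by near-identical copies were assigned.

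The summed estimated counts ranged from 68754539 to 100485739 per waterlogged library, and 34954 to 43299 loci reached 1 FPKM (a level per length of transcript, scaled to the mapped fragments of each library). Pearson's r of the log2 levels between libraries of a group was 0.789 to 0.863 in BN207 and 0.774 to 0.905 in ZM22. The common biological coefficient of variation was 0.676 over the 18 libraries, a wide spread that limits what 3 libraries against 3 can show. The transcripts were those of a seed that mobilises reserves. Alpha-amylase MSTRG.31242, which cuts starch, stood at 1730, 5250 and 4940 FPKM in BN207 and 1250, 847 and 3360 FPKM in ZM22. Of 99 loci described as gluten proteins, the stored protein of the endosperm, 19 were high enough over the 18 libraries to be tested. Their median level on the log2(FPKM + 1) scale was low, at 0.17, 0.23 and 0.11 in BN207 and 0.03, 0 and 0 in ZM22. All 19 had a log2 difference of BN207 over ZM22 above 0, against 7 of 18 tested storage globulins. In either list edgeR called 0. Of 197 green tissue markers (photosystem and Calvin cycle genes), 30 were tested, and none of these passed the edgeR test between the varieties (1 had an unadjusted p under 0.05, DESeq2 called 0, or 1 lower without replicate 1 of BN207, and limma on log2(FPKM + 0.1) called 1 higher). Over all tested loci edgeR called 1.34%. The root marker among the tested loci, root-specific lectin MSTRG.4639, was listed at 0, 31.1 and 0 FPKM in BN207 and at 0.0498, 0 and 5.74 FPKM in ZM22.

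One library went against its label. The control libraries gave 245 loci that were on in BN207 (at least 1 FPKM in all 3) and off in ZM22 (at most 0.1 FPKM in all 3). Of these, 97.1% and 96.3% were detected (at least 0.5 FPKM) in W72_BN207 replicates 2 and 3, but 60.8% in the library labelled W72_BN207 replicate 1. In the ZM22 libraries 0.408 to 1.22% of them were detected. The reverse set, 113 loci on in ZM22 and off in BN207, gave 91.2 to 98.2% in the ZM22 libraries. None of the 113 was detected in BN207 replicates 2 and 3, which allows a share of up to 3.21% (exact binomial interval), whereas 66 of them (58.4%) were detected in replicate 1. Of 165 loci on in C72_BN607 alone, 161 (97.6%) were detected in W72_BN207 replicate 1, against 1 and 3 in replicates 2 and 3, and 1, 1 and 2 in ZM22. The waterlogged BN607 libraries detected 138, 158 and 162 of them. Of 216 loci on in BN207 and off in BN607, replicate 1 detected 2 while replicates 2 and 3 detected 205 and 208. The library labelled W72_BN207 replicate 1 thus carried the transcripts by which the control libraries of BN607, not BN207, were set apart, and every main result is given also without it. These intervals and shares cover counting error only.

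**Figure D1:**
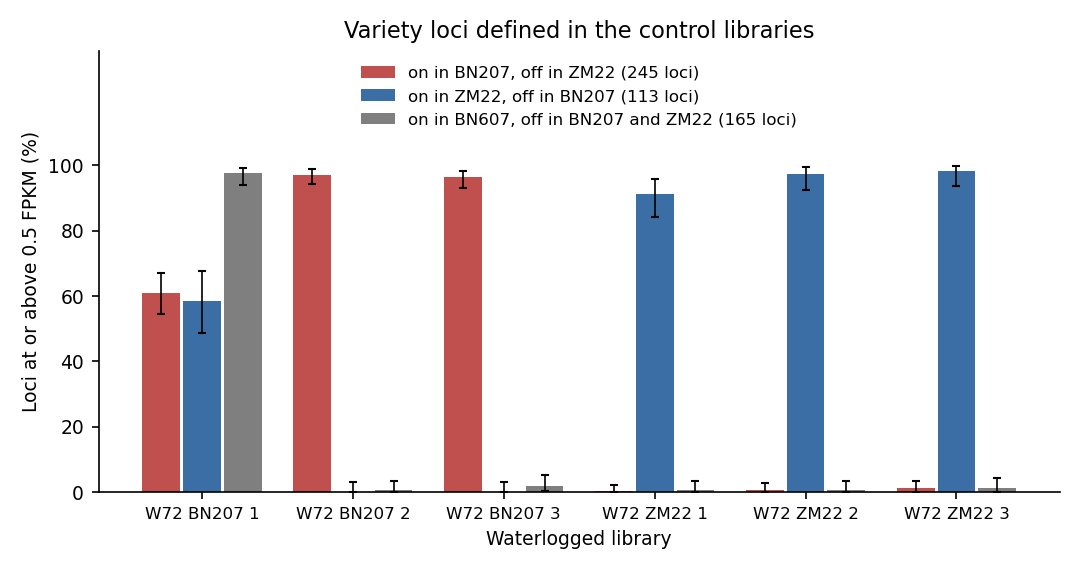
Share of variety loci, defined in the control libraries, that were detected at or above 0.5 FPKM in each waterlogged library (y axis, percent); bars are shares and whiskers are exact 95% binomial intervals. W72_BN207 replicate 1 shows 60.8% of the BN207 loci, 58.4% of the ZM22 loci and 97.6% of the BN607 loci, while the other 5 libraries show nearly all loci of their own variety and few of the others.

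Between the waterlogged varieties, 677 of 50656 tested loci (1.34%) differed at an adjusted p under 0.05 (edgeR quasi-likelihood test). BN207 was higher at 593 of them (1.17%) and lower at 84 (0.166%). A call below means a locus past this threshold. Without W72_BN207 replicate 1 there were 980 calls (1.93%), 703 higher (1.39%) and 277 lower (0.547%). The fits shared 600 calls, with 77 made only with all 6 libraries and 380 only without replicate 1. Leaving out BN207 replicate 2 or 3 instead gave 40 or 49 lower calls, so the count of lower calls rested on which BN207 library was left out. All these fits took the spread from all 18 libraries. With the 6 waterlogged libraries alone edgeR called 161 loci (138 higher and 23 lower), and with the 5 that remain without replicate 1 it called 0, although 3824 loci then had an unadjusted p under 0.05 with a change of at least 1 on the log2 scale and DESeq2 over all groups called 2709 without that library. The DESeq2 calls were 1256 higher and 1453 lower there, against 1336 higher and 733 lower with all libraries, so the excess of higher calls depended on the tool and on replicate 1. The study's own thresholds, an unadjusted p under 0.05 with a change of at least 1 on the log2 scale, took 3851 loci (7.6%), 2026 higher and 1825 lower. The study set them on Ballgown tests of waterlogging against control within a variety. Here they were set on the edgeR test between varieties, so the counts are not comparable with the study's. Without replicate 1 these thresholds took 4289 loci and the balance turned, with 1906 higher and 2383 lower. The FPKM values of the groups did not overlap at 6454 tested loci (12.7%), and at 672 of the 677 calls. Separation of the groups at a called locus below therefore adds little to its call. The median log2 difference over all tested loci was 0.02, and -0.05 without replicate 1.

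Many calls were all-or-nothing. At 177 of the higher calls the 3 ZM22 libraries had no counts at all, and at 23 of the lower calls the 3 BN207 libraries had none. Among the calls without W72_BN207 replicate 1, ZM22 had no counts at 235 higher calls. BN207 replicates 2 and 3 had none at 94 lower calls. For such loci the fold is given as a lower bound against a floor of 3 counts per library. Among the loci with the highest fitted changes was MSTRG.28526 on 6A (596895364-596897457), a predicted protein of unknown role. It had 21.3, 20.5 and 26 FPKM in BN207 and 0 in every ZM22 library, at least 934-fold higher. Alternative splicing regulator MSTRG.36540 on 7D, whose name places it in pre-mRNA processing, had 13.3, 13.3 and 11.6 FPKM against 0 in every ZM22 library, at least 694-fold higher. In the other direction MSTRG.37219, an unannotated transcript on an unplaced scaffold, was at 0 in every BN207 library and at 65.1, 24.8 and 37.8 FPKM in ZM22, at least 1400-fold lower. It was present in the control BN207 libraries at 64.5, 8.96 and 14.2 FPKM, against 86, 77.1 and 30.5 FPKM in control ZM22 (log2 fold change -1.15, adjusted p = 0.662), and the test of a changed difference gave an adjusted p of 1. All of these passed the test in both fits.

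Many of the calls were also made without waterlogging. In the control libraries 823 loci were called between BN207 and ZM22 (1.62%), 619 higher (1.22%) and 204 lower (0.403%). Leaving out 1 control library gave 505 to 1283 calls, with 676 of the 1283 higher without C72_ZM22 replicate 3, and, in higher and lower calls, 501 and 52 without C72_BN207 replicate 2, 488 and 54 without C72_BN207 replicate 3, 433 and 75 without C72_ZM22 replicate 1 and 432 and 73 without C72_ZM22 replicate 2. DESeq2 called 1221 higher and 1334 lower, and the shares of shared calls below rest on the edgeR calls with all control libraries. Of the waterlogged calls, 588 were also called in the control contrast with the same sign, 86.9% of the waterlogged calls and 71.4% of the control calls. Without W72_BN207 replicate 1 the shared calls were 644, or 65.7%. The 2 contrasts use separate libraries but come from the same fit with a shared spread per locus, so their calls are not independent. At 673 of the 677 waterlogged calls the control difference had the same sign. A test of whether the variety difference itself changed with waterlogging called 2 loci (0.00395%), with 755 (1.49%) at an unadjusted p under 0.05. DESeq2 called 232 loci in that test, and edgeR without replicate 1 called 2.

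The higher calls were concentrated on chromosome 1B. Of the 593, 309 lay on 1B and 59 on 1D, followed by 36 on 3B, 29 on 6B and 28 on 7D, whereas the 84 lower calls were spread more evenly, with 14 on 2B and 12 on 3B. Without replicate 1, 1B again held 309 higher calls, while 6B rose to 57 higher and 31 lower calls, 2B to 33 and 32, and 7B to 28 and 31. In bins of 20 Mb, 15 bins held at least 10 higher calls that made up more than 10% of their tested loci, a rule chosen after the positions had been seen. They formed 4 segments, on 1B, 1D, 3B and 7D. Together the segments held 395 of the 593 higher calls (66.6%) on 899 of the 50656 tested loci, and outside them 198 of 49757 loci (0.398%) were higher. Without replicate 1 the segments held 379 of the 703 higher calls (53.9%).

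**Figure D2:**
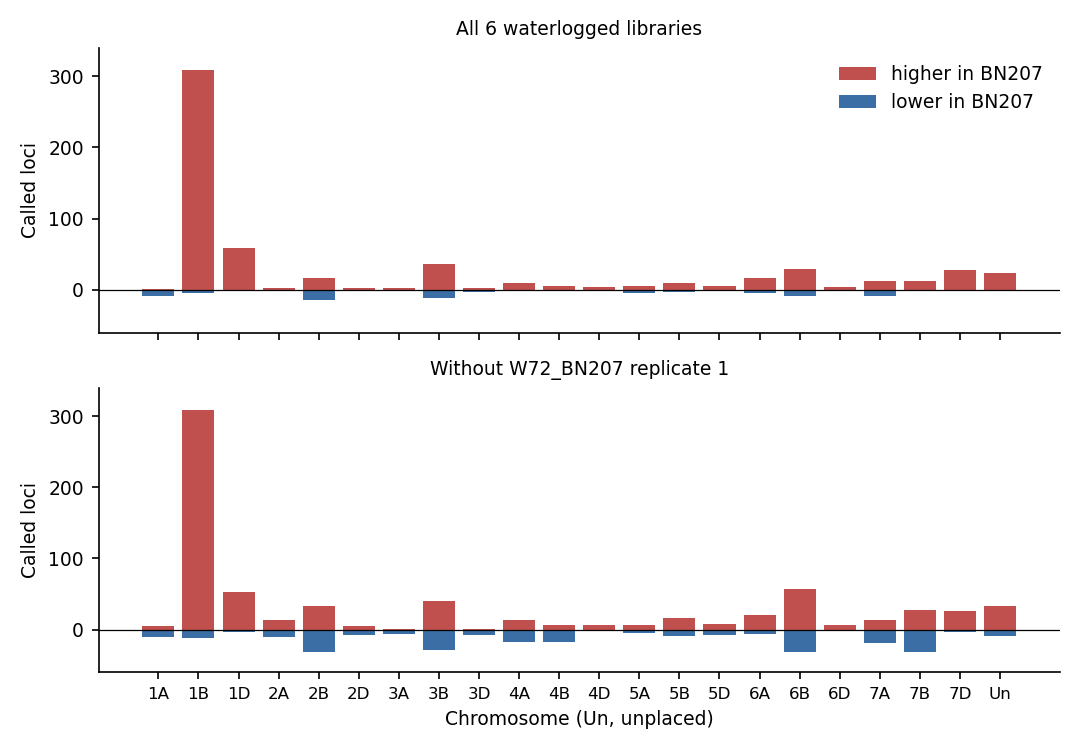
Called loci by chromosome (x axis, Un for unplaced scaffolds), with loci higher in BN207 drawn upwards and lower loci downwards (y axis, number of loci), for all 6 waterlogged libraries and without W72_BN207 replicate 1. 1B has 309 higher calls in both panels, and 2B, 6B and 7B gain calls in both directions in the lower panel.

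The first 240 Mb of 1B held many of the higher calls. Of 630 tested loci there, 303 were higher in BN207 (48.1%) and 1 was lower, and these were 51.1% of all higher calls. The share was 42.1% without replicate 1, 33.2% of the higher calls of DESeq2 and 32.4% of those of DESeq2 without replicate 1. Without replicate 1 the higher calls were 296, of which 281 were the same loci, and in the control libraries 306, of which 274 were the same loci. In each of the 12 bins of 20 Mb between 35.3 and 65.0% of the tested loci were called higher. The median log2 difference over the 630 loci was 3.27 (3.15 with loci at 0 in ZM22 set to their lower bound), and 2.97 without replicate 1. The mean FPKM had a median of 2.93 in BN207 and 0.337 in ZM22. By ratio of means, 302 loci in ZM22 were below 0.1 of the BN207 level, 244 between 0.1 and 0.5 and 83 at or above 0.5. The difference ended abruptly. The last call was MSTRG.2129 (237374033-237376619), TATA-box-binding protein 1, a general transcription factor, with 5.58, 6.64 and 5.33 FPKM in BN207 and 2.41, 3.65 and 2.18 FPKM in ZM22. The next 20 Mb held 27 tested loci and 0 higher calls at a median of 0.14, and the next higher call, MSTRG.2182, began at 288158935. Over the remaining 1670 tested loci of 1B there were 6 higher and 3 lower calls and a median of 0.00.

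**Figure D3:**
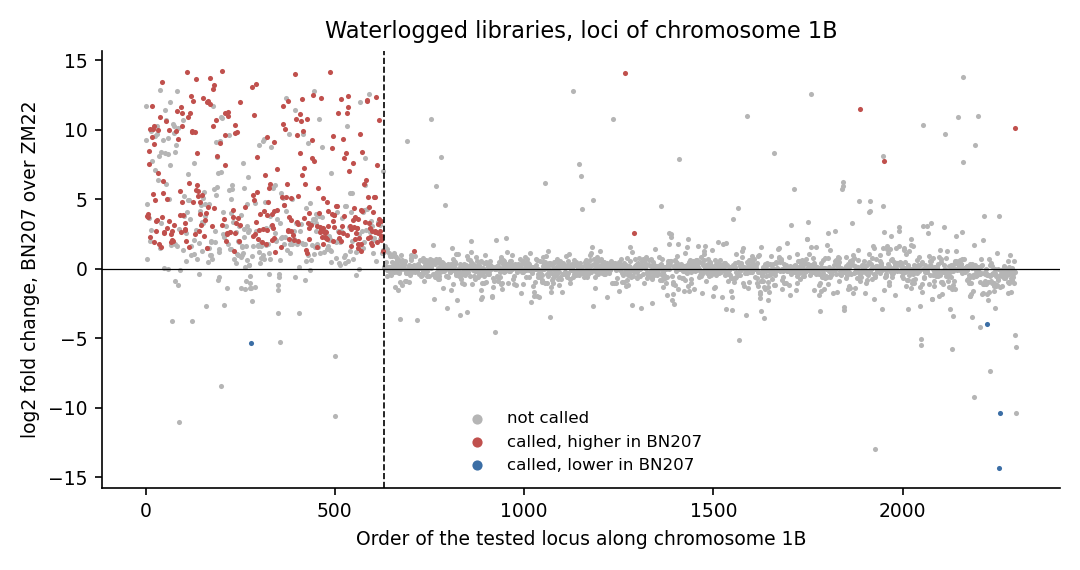
Log2 difference of BN207 over ZM22 in the 6 waterlogged libraries (y axis) for the tested loci of chromosome 1B in their order along the chromosome (x axis, rank of the locus), with calls in colour; the dashed line marks the end of the segment. Most loci to the left of the line lie above 0 (median 3.27) and those to the right scatter around 0 (median 0.00), and values near and above 10 belong to loci with few or no counts in ZM22, whose height depends on the prior count.

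Summed over its loci, the segment of 1B took 1.34, 0.937 and 0.916% of all estimated counts in BN207 and 0.214, 0.274 and 0.219% in ZM22. The groups did not overlap, and the means were 1.06% ± 0.238 and 0.236% ± 0.0334 (SD, n = 3 each), a ratio of 4.51 with an exact 2-sided permutation p of 0.1, the smallest that 3 libraries against 3 can give. The segment was picked by higher calls in these same libraries, so the separation was favoured in advance and the p-value adds no support. Without replicate 1 the ratio was 3.93. In the control libraries the means were 1.23% and 0.244%, a ratio of 5.04.

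**Figure D4:**
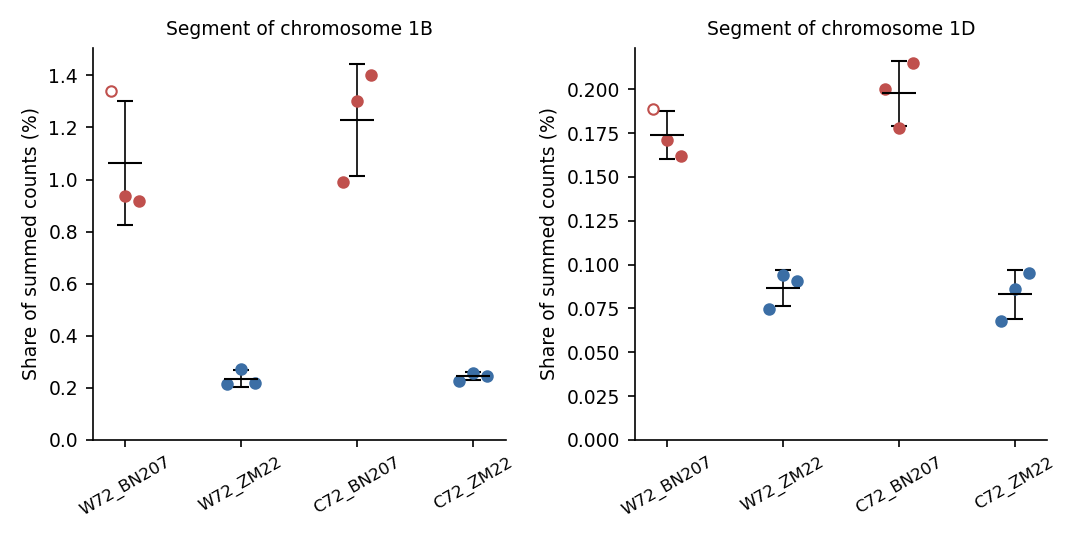
Share of all estimated counts taken by the segments of 1B and 1D (y axis, percent) in each library, with group means and SD as bars; red is BN207, blue is ZM22 and the open circle is W72_BN207 replicate 1. On 1B every BN207 library is at or above 0.916% and every ZM22 library at or below 0.274%, in waterlogged and control seeds.

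Genes of this 1B segment covered many functions. The highest was MSTRG.1758 (25812498-25814364), a predicted protein of unknown role, at 302, 162 and 276 FPKM in BN207 and 0.238, 0.312 and 0.319 FPKM in ZM22. Every BN207 library was far above every ZM22 library (log2 fold change 9.80, SE 0.45, adjusted p = 3.8e-08). SE here and below was calculated back from the fold change and the test's F statistic, so it is not a separate measure of spread. Dehydroascorbate reductase MSTRG.1788, which regenerates ascorbate, had 277, 36.8 and 52.3 FPKM in BN207 and 4.22, 8.78 and 4.97 FPKM in ZM22 (log2 fold change 4.44, SE 0.70, adjusted p = 0.00261). Its highest value was in replicate 1, and the groups remained apart without it. PDI-like protein MSTRG.1999, of the protein disulfide isomerase family that folds secreted proteins, had 59.6, 103 and 79.7 FPKM against 18.4, 22.6 and 14.3 FPKM (log2 fold change 2.27, SE 0.31, adjusted p = 7.5e-04). Glucose-6-phosphate isomerase MSTRG.1776, an enzyme of glycolysis, had 50.2, 32.1 and 42.4 FPKM against 8.48, 3.33 and 2.36 FPKM (log2 fold change 3.17, SE 0.58, adjusted p = 0.00849). The isomerase was also higher in the control libraries (log2 fold change 2.82).

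Inhibitors and proteinases of the segment varied widely among the BN207 libraries. Subtilisin-chymotrypsin inhibitor-2A MSTRG.1726, which blocks serine proteinases, had 16.4, 236 and 1.27 FPKM in BN207 and 0.213, 0.0734 and 0.0835 FPKM in ZM22. The groups did not overlap although the BN207 libraries were themselves far apart (adjusted p = 0.0205, edgeR). The neighbouring inhibitor MSTRG.1721 followed the same order, with 8.75, 62.2 and 0.745 FPKM against 0.0746, 0 and 0 FPKM. Serine carboxypeptidase 2 TraesCS1B02G104500, of a family that trims peptides from storage protein, had 0.647, 0.406 and 2.44 FPKM against 0.0275, 0.0294 and 0 FPKM. Non-specific lipid-transfer protein TraesCS1B02G063700 was at 1.95, 0.173 and 0.345 FPKM in BN207 and at 0 in every ZM22 library, at least 9.46-fold higher. Each of these passed the test in both fits.

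Other calls of the segment were housekeeping genes. Ribosomal protein S7 of the 40S subunit, MSTRG.2100, had 32.7, 29.8 and 25.4 FPKM in BN207 and 2.78, 7.07 and 3.48 FPKM in ZM22 (log2 fold change 2.90, SE 0.55). The 60S ribosomal protein L28-1 TraesCS1B02G118100 had 7.98, 2.43 and 2.55 FPKM and was at 0 in every ZM22 library, at least 59.5-fold higher. Kinesin-like protein KIF2C MSTRG.1989, a microtubule motor, had 9.46, 9.93 and 8.92 FPKM against 1.31, 1.05 and 1.25 FPKM (log2 fold change 3.06, SE 0.30). Its namesake on 1A, MSTRG.311, had 9.23, 14 and 10.7 FPKM against 12.2, 10.9 and 10.6 FPKM, groups that overlapped (adjusted p = 1). Both copies of heat shock 70 kDa protein 4L, a chaperone family member, were higher, MSTRG.2063 with 21.1, 25.2 and 17.3 FPKM against 5.04, 6.59 and 3.86 FPKM and MSTRG.2062 with 4.62, 6.21 and 3.55 FPKM against 0.85, 0.6 and 0.419 FPKM. Histone H2A.2.2 MSTRG.1764, a chromatin component, had 68.4, 47.3 and 28.8 FPKM against 0.165, 2.59 and 0.552 FPKM. All of these calls held without replicate 1.

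Signalling and wall genes of the segment included receptor-like protein kinase HERK 1 MSTRG.2024, a receptor kinase linked to cell elongation in Arabidopsis, with 7.21, 7.01 and 6.69 FPKM in BN207 and 0.383, 0.367 and 0.808 FPKM in ZM22. Every BN207 value was above every ZM22 value (log2 fold change 3.83, SE 0.58, adjusted p = 0.00176). Peroxidase 4 MSTRG.2083, of the class III peroxidases that act in the cell wall, had 3.47, 7.13 and 0.552 FPKM against 0.0314, 0 and 0 FPKM. Peroxidase 2 MSTRG.1902 had 8.61, 1.76 and 1.77 FPKM against 0.215, 0.201 and 0.0254 FPKM, and its call was lost without replicate 1. Both F-box/LRR-repeat protein 14 loci of the segment, TraesCS1B02G007300 and TraesCS1B02G061600, were at 0 in every ZM22 library and at least 113-fold and 42.4-fold higher in BN207. F-box proteins choose the targets of ubiquitin ligases.

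Further calls of the segment were chosen for their known roles after their values had been seen. Ethylene receptor 1 MSTRG.2006, which binds the hormone that builds up in submerged tissue, had 2.98, 3.14 and 2.94 FPKM in BN207 and 0.332, 0.827 and 0.956 FPKM in ZM22. The 3 BN207 values were close together and above all ZM22 values (log2 fold change 2.25, SE 0.33, adjusted p = 0.00121), and the control difference was 1.98. Mitogen-activated protein kinase 2 MSTRG.1936 had 10.7, 9.76 and 8.78 FPKM against 1.49, 1.44 and 1.5 FPKM (log2 fold change 2.82, SE 0.23, adjusted p = 1.0e-05). Histidine-containing phosphotransfer protein MSTRG.1795, of the relay that carries cytokinin signals, had 7.68, 17 and 12.4 FPKM and was at 0 in every ZM22 library, at least 268-fold higher. The auxin response repressor IAA15, MSTRG.2056, had 5.28, 3.13 and 1.25 FPKM against 0.138, 0.723 and 0.4 FPKM, and its call was lost without replicate 1. Proteasome subunit beta type-7-A MSTRG.2078 had 49, 35.3 and 38.6 FPKM against 7.3, 14.1 and 8.95 FPKM, and aspartic proteinase MSTRG.1910 had 27.8, 20.6 and 31.8 FPKM against 2.51, 2.08 and 0.328 FPKM. Meiosis protein mei2 MSTRG.1660, an RNA-binding protein, had 28.5, 40.1 and 59.9 FPKM against 0.109, 0.0736 and 0.0893 FPKM.

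Against this background 22 of the 630 loci were lower in BN207 by more than 1 on the log2 scale, 3 of them at 0 in every BN207 library. The single call among them was MSTRG.1871, a transcript with no description, at 0.464, 0.162 and 0.445 FPKM in BN207 and 25.2, 7.33 and 13.1 FPKM in ZM22 (log2 fold change -5.34, SE 0.99, adjusted p = 0.01). MSTRG.1732, whose description names RGA1-D of rye (Secale cereale), a resistance gene analogue, was at 0 in every BN207 library and at 0.515, 9.69 and 3.93 FPKM in ZM22. It was at least 78.9-fold lower, but the ZM22 libraries differed widely and it did not pass the test (adjusted p = 0.117). Glutathione transferase F3 MSTRG.1959 had 1.41, 4.01 and 11.9 FPKM in BN207 and 23.5, 147 and 35.9 FPKM in ZM22 and did not pass either (adjusted p = 0.383). The last 2 loci were chosen after their values had been seen.

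The homoeologous chromosomes showed a small shift in the other direction. Over the first 200 Mb of 1A, 612 tested loci had a median log2 difference of -0.22 with 66.7% of loci below 0, against -0.04 and 53.4% from 200 to 600 Mb. Over the first 160 Mb of 1D, 572 loci had a median of -0.19 with 63.3% below 0, against -0.02 and 52% from 160 to 480 Mb. Over all tested loci 48.4% were below 0. Without replicate 1 the medians were -0.32 on 1A and -0.28 on 1D, and in the control libraries -0.23 and -0.12. These boundaries were set after the values had been seen, few of the loci were called (1 higher and 6 lower on 1A), and the shift is given as a description.

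The segment of 1D lay near the end of that chromosome. Between 480 and 500 Mb, 57 of 115 tested loci were higher (49.6%) and 0 lower, and 50 of the same loci were higher without replicate 1. From the first call, MSTRG.4995 at 484390264, to the last, TraesCS1D02G454700 at 495232501-495235053, 57 of 81 loci were called (70.4%) at a median of 3.49. The calls themselves set these ends, which raises that share. The loci of the segment took 0.189, 0.171 and 0.162% of counts in BN207 and 0.0747, 0.0942 and 0.0908% in ZM22, a ratio of 2.01 with an exact permutation p of 0.1 and 1.92 without replicate 1. As on 1B, the segment was picked by higher calls in these libraries, so the p-value adds no support. Histone deacetylase HDAC2 MSTRG.5055, of a family that removes acetyl groups from histones, had 54.5, 55.7 and 47.1 FPKM in BN207 and 13.4, 14.4 and 5.11 FPKM in ZM22. The groups did not overlap, a condition of its being named (log2 fold change 2.38, SE 0.55, adjusted p = 0.0491), and the call was lost without replicate 1.

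The following genes of the 1D segment were chosen after their values had been seen. Early flowering 3-D1 (TraesCS1D02G451200), a part of the circadian clock that delays flowering, had 3.66, 4.35 and 4.2 FPKM in BN207 and 1.38, 0.895 and 0.796 FPKM in ZM22 (log2 fold change 2.07, SE 0.41, adjusted p = 0.0162). Mitochondrial outer membrane porin MSTRG.5044 had 20.7, 7.83 and 7.07 FPKM against 0.139, 0.195 and 0.153 FPKM. Vacuolar ATP synthetase subunit C MSTRG.5038, of the proton pump of the vacuole, had 16, 13.5 and 14.1 FPKM against 1.15, 1.79 and 1.31 FPKM. In each of these genes all BN207 values were above all ZM22 values. Argonaute 4B MSTRG.5053, a protein of RNA-directed DNA methylation, behaved differently, with 0.192 FPKM in replicate 1, 20.9 and 17.1 FPKM in replicates 2 and 3 and 0.203, 0.489 and 0.182 FPKM in ZM22. Replicate 1 lay within the ZM22 range, and the locus was called in both fits.

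Shorter segments stood on 3B and 7D. On 3B 12 of 59 tested loci between 500 and 520 Mb were higher (20.3%), all between 512513775 and 519495961, where 12 of 20 loci were called. On 7D 23 of 95 tested loci between 620 and 640 Mb were higher (24.2%), between 631757010 and 635589335, where 23 of 38 were called. The calls themselves set the ends of both spans, which raises the shares within them. The shares of all counts taken by both segments did not separate the groups (ratio 1.03, exact permutation p = 0.9, on 3B and ratio 1.33, exact permutation p = 0.2, on 7D). MSTRG.14028, an undescribed transcript that closes the 3B segment, had 8.99, 9.09 and 11.6 FPKM in BN207 and was at 0 in every ZM22 library, at least 476-fold higher. The NADP-dependent malic enzyme of this segment, MSTRG.14026, chosen after its values had been seen, had 5.57, 3.8 and 1.35 FPKM against 0.261, 0.0583 and 0.0247 FPKM. On 7D phosphatidylinositol-4-phosphate 5-kinase 9 MSTRG.36539, an enzyme of lipid signalling, had 3.88, 1.25 and 1.22 FPKM and was at 0 in every ZM22 library, at least 185-fold higher. Sucrose synthase TraesCS7D02G552800, which cleaves sucrose, had 0.898, 0.575 and 0.536 FPKM and was at 0 in every ZM22 library, at least 59.6-fold higher. DIMINUTO MSTRG.36559, a brassinosteroid biosynthesis protein chosen after its values had been seen, had 34.3, 42.6 and 7.58 FPKM against 1.13, 4.58 and 2.63 FPKM, groups that did not overlap.

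Among the edgeR calls, genes lower in BN207 were fewer than those higher, which did not hold for DESeq2 without replicate 1 or for the study's thresholds without it. The 20S proteasome beta 5 subunit MSTRG.31817 on 7A, a catalytic part of the proteasome, had 5.17, 5.35 and 2.06 FPKM in BN207 and 31.9, 55.1 and 35.7 FPKM in ZM22. Every BN207 value was below every ZM22 value (log2 fold change -3.18, SE 0.35, adjusted p = 1.2e-04), with a control difference of -2.53. Glutelin type-A 2 MSTRG.173 on 1A, a globulin-type storage protein, had 9.85, 19 and 8.26 FPKM against 85, 55.5 and 143 FPKM (log2 fold change -2.89, SE 0.58, adjusted p = 0.0184). Histone H1 MSTRG.8466 on 2B, a linker histone, had 1.46, 1.06 and 1.03 FPKM against 54.9, 63.2 and 57 FPKM (log2 fold change -5.51, SE 1.21, adjusted p = 0.0358). Purple acid phosphatase 2 MSTRG.23025 on 5A, which releases phosphate, had 6.48, 3.16 and 6.91 FPKM against 45.5, 29.6 and 25.2 FPKM. Alternative oxidase MSTRG.8612 on 2B, which lets electrons bypass part of the respiratory chain, had 0.522, 0.212 and 0.203 FPKM against 2.32, 3.65 and 5.78 FPKM (log2 fold change -3.55, SE 0.75, adjusted p = 0.0265). The groups did not overlap at any of these loci, which for all but the alternative oxidase was a condition of being named. The proteasome subunit and the alternative oxidase were called in both fits, and the calls of the glutelin, the histone and the phosphatase were lost without replicate 1, although their log2 differences stayed at -2.71, -5.61 and -2.54. Glucan 1,3-beta-glucosidase MSTRG.23520 on 5B, a glucan hydrolase, was lost likewise, with 0.871, 1.45 and 1.54 FPKM against 47.2, 7.91 and 8.92 FPKM, and its groups overlapped in the control libraries (log2 fold change -0.32).

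Leaving out W72_BN207 replicate 1 brought out further differences. Of the 277 loci called lower without it, replicate 1 lay within or above the ZM22 range at 170 (61.4%), and of the 703 called higher it lay within or below that range at 123 (17.5%). Class II chitinase MSTRG.34798 on 7B, which cuts fungal cell walls, had 416 FPKM in replicate 1, 6.31 and 3.6 FPKM in replicates 2 and 3 and 630, 270 and 365 FPKM in ZM22. Fructose-bisphosphate aldolase MSTRG.13006 on 3B (10930856-10957184), a glycolytic enzyme described as the chloroplast form, had 34.1 FPKM in replicate 1, 1.36 and 1.36 FPKM in replicates 2 and 3 and 26.9, 76.1 and 54.2 FPKM in ZM22. Both were called lower without replicate 1 and neither with it. The aldolase lay in a bin, 3B from 0 to 20 Mb, in which 10 of 114 tested loci were called lower without replicate 1, 3 with it and 8 in the control libraries.

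Higher calls that needed replicate 1 to be left out included luminal-binding protein 4 MSTRG.27381 on 6A, a chaperone of the endoplasmic reticulum. It had 26.8 FPKM in replicate 1, 89.3 and 106 FPKM in replicates 2 and 3 and 25.8, 29.2 and 29.1 FPKM in ZM22. Histone H4.3 MSTRG.14251 on 3B, a core histone, had 0.0454 FPKM in replicate 1 and 14.2 and 12.9 FPKM in replicates 2 and 3, against at most 0.0768 FPKM in ZM22. At both loci replicate 1 was within the ZM22 range or close to it. Cytosolic Fe-S cluster assembly factor MSTRG.29403 and its neighbour SKIP30 F-box protein MSTRG.29402 on 6B were called lower without replicate 1. The first, chosen after its values had been seen, had 9.07, 0.0832 and 0.182 FPKM in BN207 and 9.2, 9.7 and 9.22 FPKM in ZM22. The ATP-dependent Clp protease locus TraesCS7B02G357600 on 7B, chosen in the same way, had 3.52, 0 and 0 FPKM against 3.74, 3.63 and 2.3 FPKM.

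**Figure D5:**
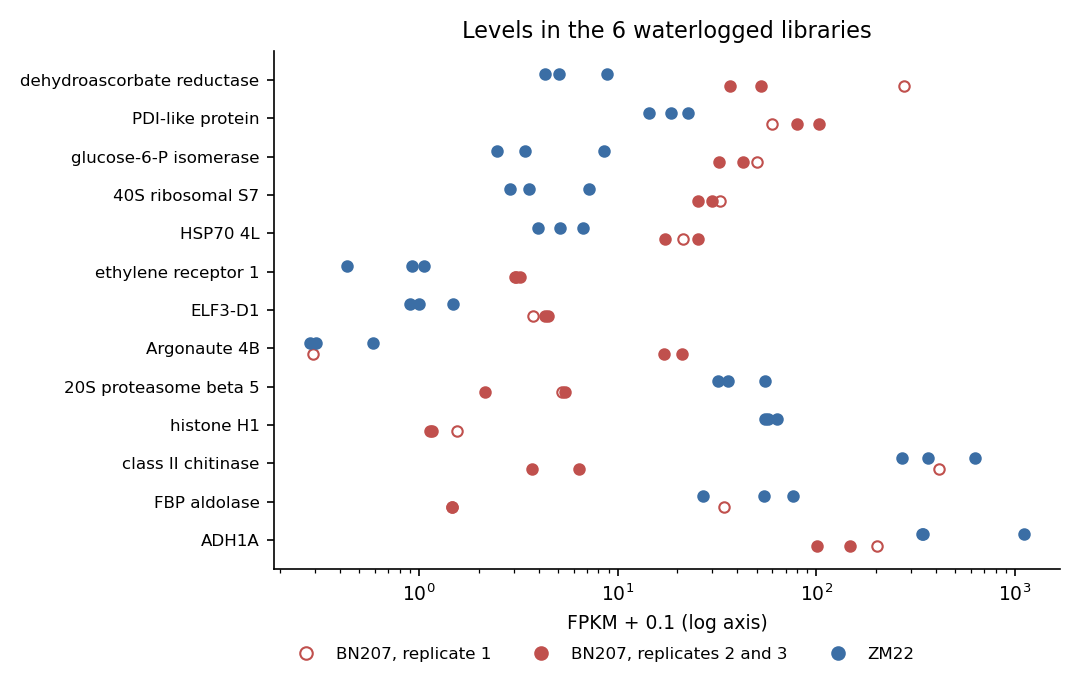
Levels of 13 named genes in the 6 waterlogged libraries (x axis, FPKM + 0.1 on a log axis); red is BN207, blue is ZM22 and open circles are W72_BN207 replicate 1. The upper 7 genes show every BN207 library above every ZM22 library, and for Argonaute 4B, class II chitinase and fructose-bisphosphate aldolase the open circle lies among the ZM22 points.

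Pathway by pathway the called loci were few, as they were over all tested loci. Over 43 gene lists 3171 members were tested, of which 34 were called higher and 2 lower, against 1.17% and 0.166% of all tested loci, and 23 of the 34 lay in the 4 segments. Without replicate 1 the counts were 39 and 13, and without W72_ZM22 replicate 2 or 3 they were 22 and 1 or 22 and 2. In 29 lists edgeR called no member of 1197 tested (141 members had an unadjusted p under 0.05, and DESeq2 called 20 higher and 29 lower, or 15 higher and 53 lower without replicate 1). Over all 50656 tested loci 7.6% had an unadjusted p under 0.05 with a change of at least 1 on the log2 scale. The counts of members by p carry no such limit on the change. The share of all loci by p alone is therefore at least 7.6%, and the counts cannot be set directly against it. Of all tested loci DESeq2 called 1336 higher and 733 lower, or 1256 higher and 1453 lower without replicate 1. Disease resistance receptors, intracellular receptors that detect pathogens, had 8 higher calls of 250, among them RPP13-like MSTRG.17914 on 4A with 6.04, 1.36 and 0.908 FPKM in BN207 and 0 in every ZM22 library, at least 225-fold higher. Receptor-like kinases had 5 of 443, F-box proteins 3 of 124, ribosomal proteins 3 of 296 and class III peroxidases 3 of 87, the last all in the 1B segment. Ribosomal proteins had a median log2 difference of 0.18 with 235 of 296 members above 0. Their median level on the log2(FPKM + 1) scale was 5.27, 6.13 and 4.86 in BN207 and 4.94, 5.98 and 5.30 in ZM22, so the groups overlapped. The 2 lower calls were the histone H1 and the alternative oxidase given above.

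Fermentation enzymes did not pass the edgeR test, although most had lower values in BN207. None of the 30 tested members (of 35 in the table) was called in either fit, 9 had an unadjusted p under 0.05, and DESeq2 called 4 lower. Over all 50656 tested loci 7.6% had such a p with a change of at least 1 on the log2 scale, a stricter condition than the p alone used for the members. Of all tested loci edgeR called 1.34%, and DESeq2 called 733 lower. At 23 members the log2 difference was below 0, and the median was -1.27, against 0.02 over all loci. The median level on the log2(FPKM + 1) scale was 1.91, 1.32 and 1.54 in BN207 and 4.34, 2.83 and 2.77 in ZM22, which did not overlap. The medians of alternative oxidases, glutathione S-transferases and WRKY factors were likewise lower in BN207 without overlap, and those of F-box and gluten proteins higher. Such separation was thus not particular to fermentation enzymes. Without replicate 1 the median difference was -2.12, and without ZM22 replicate 1, the highest library, it was -0.52. In the control libraries it was -0.58, and no member was called in the test of a difference between waterlogging and control. Alcohol dehydrogenase ADH1A MSTRG.17520, the most abundant member, had 203, 101 and 148 FPKM in BN207 and 1110, 340 and 345 FPKM in ZM22. All BN207 values were below all ZM22 values, but the locus did not pass the test (log2 fold change -1.98, SE 0.72, adjusted p = 0.341).

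Other low-oxygen and carbohydrate genes did not follow one order. Sucrose synthase 1 MSTRG.35268, the most abundant locus of sucrose metabolism, had 38.4, 20.2 and 6.8 FPKM in BN207 and 534, 53.7 and 37.9 FPKM in ZM22, where BN207 replicate 1 just reached the lowest ZM22 library (adjusted p = 0.276). Enolase MSTRG.25341, of glycolysis, had 310, 117 and 340 FPKM against 1280, 484 and 324 FPKM, with overlapping groups. Another enolase, MSTRG.16106, was called higher with 8.61, 7.73 and 6.26 FPKM against 3.65, 3.52 and 2.11 FPKM, a call lost without replicate 1. Of 93 glycolysis members 69 had a difference below 0 (median -0.33), and 2 were called higher. Without replicate 1 edgeR called 2 higher and 2 lower. DESeq2 called 4 higher and 0 lower, or 4 higher and 2 lower without replicate 1. Of 5 plant cysteine oxidases, the oxygen sensors that mark ethylene response factors for breakdown, none was called (0 at an unadjusted p under 0.05, and 0 by DESeq2), and the most abundant, MSTRG.28123, had 5.08, 4.19 and 5.24 FPKM against 3.75, 5.61 and 4.68 FPKM. Over all tested loci edgeR called 1.34%, so 0 calls among so few members say little about them.

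Most genes of reserve mobilisation did not pass the test, like most of all tested loci, of which edgeR called 1.34%. Of 33 alpha-amylases edgeR called 0 (0 at an unadjusted p under 0.05, and 0 by DESeq2), and their median level on the log2(FPKM + 1) scale ran from 5.35 to 10.32 in BN207 and from 7.89 to 9.10 in ZM22. Cathepsin B MSTRG.20208, a cysteine proteinase, had 1610, 3440 and 2890 FPKM in BN207 and 1280, 525 and 1670 FPKM in ZM22, with overlapping groups (adjusted p = 0.772). Isocitrate lyase MSTRG.5721, of the glyoxylate cycle that turns oil into sugar, had 929, 1640 and 1290 FPKM against 524, 181 and 924 FPKM (adjusted p = 0.791). The storage globulin with the highest level, globulin-3A MSTRG.17878, had 100, 46.9 and 24.4 FPKM against 785, 159 and 94.5 FPKM, where only replicate 1 of BN207 reached the ZM22 range. Vignain MSTRG.27372 on 6A, a cysteine proteinase of germinating seeds, was called higher in both fits, with 8.74, 0.499 and 2.3 FPKM and 0 in every ZM22 library, at least 139-fold.

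Late embryogenesis abundant proteins and dehydrins, which protect desiccated seed, varied from library to library. Of 47 tested members 37 had a log2 difference above 0 at a median of 2.14, and edgeR called none (6 had an unadjusted p under 0.05, and DESeq2 called 2 higher). Their median level on the log2(FPKM + 1) scale was 0.71, 6 and 0.58 in BN207 and 3.31, 1.66 and 0.86 in ZM22, so BN207 replicate 2 alone stood above the ZM22 libraries. The control difference had a median of -1.45. Glutathione S-transferases, which conjugate toxic compounds to glutathione, had 57 of 72 members below 0 and a median of -0.79. That median was -1.41 without replicate 1 of BN207 and -1.29 in the control libraries. None was called (12 had an unadjusted p under 0.05, and DESeq2 called 4 lower), and their median levels were 2.13, 1.99 and 2.22 in BN207 against 2.23, 3.98 and 3.45 in ZM22. Over all 50656 tested loci 7.6% had such a p with a change of at least 1 on the log2 scale, a stricter condition than the p alone used for the members. Of all tested loci edgeR called 1.34%, and DESeq2 called 1336 higher and 733 lower.

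Of the genes that the study names by identifier, a list of 30 loci was examined, with alcohol and lactate dehydrogenases, starch and galactose enzymes and the WRKY, MYB and ERF factors, of which 27 were tested. The study's factors of other families were not on the list. In either edgeR fit 0 were called, with 6 at an unadjusted p under 0.05, DESeq2 called 1 higher and 1 lower (1 higher and 2 lower without replicate 1), and limma on FPKM called 1 higher. The values over all tested loci stand with the gene lists above. Alcohol dehydrogenase ADH2H MSTRG.26087 had 58.3, 2.5 and 2.09 FPKM in BN207 and 3.85, 43.2 and 23.2 FPKM in ZM22. Replicate 1 was the highest of the 6 libraries and replicates 2 and 3 were the lowest (log2 fold change -0.03, SE 1.27, adjusted p = 1, and -3.04 without replicate 1). Xylanase MSTRG.24923, which cuts the xylan of cell walls, had 280, 466 and 669 FPKM in BN207 and 0.615, 0.23 and 43.6 FPKM in ZM22. Its groups did not overlap but the ZM22 libraries were far apart, and it did not pass (adjusted p = 0.367). WRKY transcription factor 80 MSTRG.27655, of a stress-related family, had 0.38, 0.42 and 0.272 FPKM against 3.57, 1.28 and 2.33 FPKM (adjusted p = 0.261).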

How the data were processed

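The 6 waterlogged libraries of BN207 and ZM22 were poly(A) RNA-seq libraries of seed, which the study describes as biological replicates, so a p-value speaks of the scatter among these libraries. Reads were trimmed with cutadapt, aligned to IWGSC RefSeq v1.0 and assembled with StringTie by the authors, and the submitters' processing notes also name HISAT (the sources used here give no versions). The authors deposited estimated counts and FPKM per gene, and both were used as deposited. The estimated counts were rounded to whole numbers. How they were made from the assembly was not given, and their sums exceed the number of reads that the study states, so they were not read as depth. A fit with the counts divided by 4 was run for this reason.

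Of 94141 genes, 50656 with at least 1 FPKM in 3 libraries were tested with edgeR 4.0.16 (R 4.3.3), TMM normalization and the quasi-likelihood test over all 18 libraries and 6 groups, with Benjamini-Hochberg adjustment and a threshold of 0.05. The SE printed is the absolute log2 fold change over the square root of the test's F statistic. The fit without W72_BN207 replicate 1 kept everything else. The remaining BN207 libraries then form a pair whose spread is pooled with the other groups. Alternatives used DESeq2 1.42.0, limma 3.58.1 on log2(FPKM + 1) or log2(FPKM + 0.1), other filters, fewer libraries and a replicate block. The edgeR step was tested on simulated data. Position and share statistics were computed in Python 3.11.15.

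The genes named were the 8 described calls with the highest mean FPKM in each direction whose groups did not overlap, the 4 calls with the largest fitted change in each direction, up to 3 called members and the most abundant member of each list, 30 loci that the study names and the ends of each segment. Other genes are said to be chosen after their values were seen. The comparison and the lists were chosen with earlier results of these data known. A fold against a group at 0 used a floor of 3 counts per library. Segments were joined from bins of 20 Mb with at least 10 higher calls and more than 10% of tested loci called, a rule set after the data had been seen.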

Additional observations from a re-analysis of the deposited data

Results flagged for a closer look

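At 2 loci the variety difference itself differed between waterlogged and control seeds (edgeR test of the difference of differences, 0.00395% of tested loci). MSTRG.1763 (1B, 28561964-28564707), a protein of unknown role, had 7.89, 10 and 10.3 FPKM in waterlogged BN207 and 0 in every waterlogged ZM22 library. In the controls it had 7.46, 9.05 and 9.85 FPKM in BN207 and 0.1, 0.0848 and 0.21 FPKM in ZM22. The fitted difference between waterlogging and control was 7.65 on the log2 scale (SE 0.80, adjusted p = 0.0122), and its size and SE depend on the prior count because waterlogged ZM22 had no counts. MSTRG.30200 (6B, 715743060-715751618), an undescribed transcript, had 9.3, 8.47 and 6.43 FPKM in waterlogged BN207 and 0 in every waterlogged ZM22 library, and 7.26, 8.15 and 9.56 FPKM against 0.0625, 0.0429 and 0.0345 FPKM in the controls, a fitted difference of 6.81 (SE 0.63, adjusted p = 0.00598) with the same dependence. With the counts divided by 4, or with a replicate block, edgeR called 0 loci in this test.

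The libraries of BN607 took no part in the comparison, yet 97.6% of the 165 loci that the controls found on in BN607 alone were detected in the library labelled W72_BN207 replicate 1, against at most 3 of them in any other waterlogged BN207 or ZM22 library. Its origin was not tested beyond these counts.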

How the results depend on the processing

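Over the alternatives run, no named gene that was called changed its direction. For single named genes, 2546 values kept their direction and their side of the threshold, 282 lost the call, 74 gained one and 86, called under neither setting, changed sign (1 adjusted p was NA in DESeq2), and of the medians of lists 661 stayed within the spread and 69 moved. Where a value moved, the cause was not tested, apart from the stricter filters and smaller fits, which hold fewer genes or samples.

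The 677 waterlogged calls (593 higher, 84 lower) became 161 with the 6 waterlogged libraries alone, 0 with 5 of them, 2069 with DESeq2 (1336 higher, 733 lower), 2709 with DESeq2 without W72_BN207 replicate 1 (1256 higher, 1453 lower), 684 with limma on log2(FPKM + 1) (492 higher, 192 lower) and 396 at 5 FPKM, and leaving out 1 library gave 517 to 980. The 3851 loci past the study's thresholds became 5931 with DESeq2 without replicate 1, 6192 without a filter and 1899 at 5 FPKM (3008 to 4565 on leaving out 1 library). The 2 loci whose variety difference changed with waterlogging became 232 with DESeq2, 146 with DESeq2 without replicate 1, 0 with limma on log2(FPKM + 1), 1 with limma on log2(FPKM + 0.1) and 0 with counts divided by 4 (1 to 7 on leaving out 1 library). The 36 calls in lists became 7 with 6 libraries, 0 with 5, 158 with DESeq2, 188 with DESeq2 without replicate 1, 23 with limma on log2(FPKM + 1) and 17 at 5 FPKM (23 to 52 on leaving out 1 library). Of the named genes 83 were called, against 34 with 6 libraries, 0 with 5 and 61 to 75 on leaving out 1 library. Added after seeing the data, the 823 control calls became 2555 with DESeq2 and 495 at 5 FPKM (505 to 1283 on leaving out 1 library), the share of higher calls in the 1B segment, 51.1%, became 33.2% with DESeq2 and 32.4% with DESeq2 without replicate 1 (42.1 to 53.1% on leaving out 1 library), and the difference in the count share of that segment, 0.828 percentage points, ranged from 0.691 to 0.902.

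Of the loci on in BN207 controls, W72_BN207 replicates 2 and 3 held 100% and 99.2% at a detection level of 0.1 FPKM, 93.5% and 93.1% at 1 FPKM, and 100% and 98.4% for loci on at 5 FPKM. W72_ZM22 replicate 1 held 3.27% at 0.1 FPKM and 0% at 1 FPKM or for loci on at 5 FPKM, and replicate 2 held 4.49% at 0.1 FPKM. Of the loci on in ZM22 controls, W72_BN207 replicate 1 held 72.7% of those on at 5 FPKM and replicate 2 held 8.85% at 0.1 FPKM. The 3 ZM22 libraries held 100% of those on at 5 FPKM, and ZM22 replicate 3 also held 100% at 0.1 FPKM.

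Libraries with the same replicate number did not deviate together (r of deviations -0.44, -0.17 and -0.09). With 3 libraries per group, among them W72_BN207 replicate 1, these values cannot exclude that the numbers pair the samples. A replicate block gave 530 waterlogged calls, 3103 loci past the study's thresholds, 604 control calls, 27 calls in lists, 65 named genes called, 0 loci in the test of a changed difference and a 1B share of 52.2%.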
